A study of Mus musculus with 9 samples.

Results

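The proteasome is the protease that degrades ubiquitin-tagged proteins. Its 20S core is a barrel of outer alpha rings, which form the gate, and inner beta rings, which hold the catalytic sites. The 19S cap recognises ubiquitin chains, removes them and unfolds the substrate with a ring of ATPases, and other activators can dock on the core in place of the cap. Cells of the immune system, T cells among them, also build immunoproteasomes, in which the catalytic subunits are exchanged for Psmb8, Psmb9 and Psmb10. When proteasome capacity falls short, the transcription factor NRF1 (gene Nfe2l1) is known to raise the subunit genes together.

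The genes described here are the protein-coding genes whose symbols start with Psma, Psmb, Psmc, Psmd or Psme followed by a digit, without Psmb8 and Psmb9. There were 43 of them among the 21879 protein-coding genes of a table of 35288 gene identifiers. Of these, 31 encode the constitutive subunits of the 26S proteasome (7 alpha and 7 beta core subunits, 6 ATPases and 11 other cap subunits). Another 3 encode chaperones of cap assembly (Psmd5, Psmd9 and Psmd10), 4 encode activators (Psme1 to Psme4) and 3 encode specialised core subunits (Psmb10, Psmb11 and Psma8). The remaining 2 meet the rule by name: Psmc3ip, which encodes a meiotic recombination factor, and Psme2b, a near-copy of Psme2. In the mouse genome (GRCm38, GENCODE M21), 10 members lay on chromosome 11 and 6 on chromosome 14.

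RNA-seq was done on T15, a murine cell line of peripheral T-cell lymphoma (PTCL) that lacks Smarcb1, a core subunit of the SWI/SNF chromatin remodelling complex. The 9 libraries fall into 3 groups of 3. SAHA (vorinostat, an inhibitor of histone deacetylases) was given at 1 µM in 2 additions over 72 h. Smarcb1-RE cells carried a lentiviral, doxycycline (Dox)-inducible Smarcb1 cDNA (pInducer20), had been selected with G418, and received Dox at 0.5 µg/µl for 72 h. Stable clones were derived after selection, and the labels do not say how many clones the Smarcb1-RE libraries represent. Control libraries are labelled only as controls. The labels mention a vehicle and a control plasmid but not which of them these libraries received, and the study's text calls the control cells untreated. The part of a vehicle in any SAHA difference, and that of transduction, G418 or Dox in any Smarcb1-RE difference, therefore cannot be told apart from that of SAHA or Smarcb1. The same control libraries served both comparisons. In the paper, SAHA at 1 µM strongly induced apoptosis in T15 cells, with most cells dead. Smarcb1 re-expression slowed their growth but left viability and cell cycle unaffected. The part of cell death or slower growth in the differences described here was not tested.

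Library totals ranged from 20900424 to 24941408 counts, and 13697 genes were tested. Counts of Smarcb1 were 2, 5 and 8 in control, 7, 13 and 3 with SAHA and 151, 147 and 142 after induction (Smarcb1-RE). Of 10 T-cell markers, Cd3d, Cd3e, Cd3g, Cd247, Lck, Cd8a and Cd8b1 were abundant in every library (summed level of the list, 3159 to 3589 CPM, that is, counts scaled to a common library size), whereas Cd2 and Cd4 stood at or under 3 counts in each group, as did Thy1 in control and Smarcb1-RE. Control replicate 1 stood apart. It held the highest control value for 36 of the 42 tested members (85.7%), against 43.0% of all tested genes, and log2 fold changes of called genes that moved by over 1.5 times without it are given both ways.

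All members but Psma8, which encodes a testis-specific alpha subunit and had 0 counts in every library, passed the filter on low counts. Psmb11, the thymic cortical epithelium's form of the beta5 subunit, passed only through its treated libraries. Together the 43 genes took 0.724%, 0.676% and 0.658% of all counts in control replicates 1, 2 and 3. In SAHA libraries they took 0.613%, 0.604% and 0.607%, and in Smarcb1-RE libraries 0.389%, 0.388% and 0.390%. The groups did not overlap in this share. Per length, the 31 constitutive subunits covered a 7.69-fold range in control cells, from 32.1 RPKM (CPM per kilobase of the principal transcript, Psma3) to 247 RPKM (Psmb3), with a median of 121 RPKM. The values of Psma2 and Psma3 were divided by transcripts of 2911 and 2846 bases, long for core subunits, so their place in this order depends on the transcript chosen. Psma3 also shares sequence with a processed pseudogene (Gm13835) that was assigned 14406 counts over all libraries, against 15567 for Psma3. The lower end of the range is uncertain for this reason too. The assembly chaperones lay lower, at 25.5 ± 0.32 (Psmd5), 16.3 ± 0.85 (Psmd9) and 21.7 ± 0.21 RPKM (Psmd10; SD, n = 3 each).

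NRF1 binds antioxidant response elements, so the RefSeq promoter windows (GRCm38.p6, 250 bases before to 50 after the start) were searched for the core TGACNNNGC on both strands. A window was found for 36 of the 43 members, all but Psmd3, Psmb2, Psmd7, Psma8, Psmb1, Psmc3 and Psmb7. The core was present in 6 of the 36 (16.7%), the same share as among the promoters of all tested genes (16.7%). The 29-base stretches that hold it are shown because they mark which members carry these letters. They are written on the gene's own strand, with the core or its reverse complement in capitals.
Psmb5: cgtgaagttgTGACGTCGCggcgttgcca
Psmb6: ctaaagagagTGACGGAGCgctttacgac
Psmd9: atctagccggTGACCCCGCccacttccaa
Psmc6: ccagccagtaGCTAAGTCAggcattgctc
Psmd12: tctGCTGTGTCAcatttgcccccctcaga
Psme4: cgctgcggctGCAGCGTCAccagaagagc
The stretch of Psmb5 lies at chr14:54618024-54618052 on the minus strand. On the plus strand lie those of Psmb6 (chr11:70525338-70525366), Psmd9 (chr5:123228149-123228177), Psmc6 (chr14:45329587-45329615), Psmd12 (chr11:107479278-107479306) and Psme4 (chr11:30771758-30771786). The first base of the match stood 47 bases before the start in Psmb5, 9 in Psmb6, 31 in Psmd9, 227 in Psmc6, 247 in Psmd12 and 7 in Psme4.

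A further 6-base motif, CGGAAG (the core of binding sites of ETS-family factors, searched on both strands and chosen after the data had been seen), was found in 21 of the 36 windows (58.3%), against 35.5% of the promoters of tested genes and 18.8% of all promoters. CCAAT was found in 14 of the 36 (38.9%), against 43.9% of the promoters of tested genes. Psmc5, the most lowered cap gene in SAHA, has a window without this motif, and Psmd3, the most lowered in Smarcb1-RE, has no window. Stretches of 3 members described further on are shown as examples, with the ETS core or its reverse complement in capitals. Of these, 2 come from cap genes among the most lowered in Smarcb1-RE, and Psmb3, which was raised in SAHA, is from the core.
Psmd1: atctcgagaggCGGAAGctgcataaaaga
Psmd13: gcccgcggtgcCGGAAGtgagcgagcact
Psmb3: gaccgtaggctCTTCCGcactcacagtga
They lie on the plus strand at chr1:86064536-86064564, chr7:140882378-140882406 and chr11:97703240-97703268. These are letter matches, and binding was not measured.

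The first comparison asked which proteasome genes changed when T15 cells were exposed to SAHA. Most members were lowered by a modest amount, while a few core, cap and activator genes were raised. Of the 42 tested members, 26 were lower and 7 higher (edgeR's quasi-likelihood test, Benjamini-Hochberg adjusted p under 0.05), and 9 were not called. The background was 34.3% of all tested genes lower and 32.6% higher. Counts given below for the parts of the proteasome are to be read against these shares. How often groups did not overlap among all tested genes was not counted. Statements of overlap here and below therefore only describe the genes or sums named. The median log2 fold change of the members was -0.21, against 0.003 for all tested genes. In bulk RNA, fewer cells that express a gene and less RNA per cell cannot be told apart. Without control replicate 1 the counts were 24 lower and 9 higher and the median -0.15. Small changes rested on single libraries: 6 of the 33 calls were lost when 1 library was left out. These were Psmb11 and Psme2 (control replicates 2 and 3 in both, and each SAHA replicate for Psme2), and Psma3, Psmd3, Psmd5 and Psmd10, each with several libraries that could end the call (control replicate 1 among them for Psma3 and Psmd10, control replicate 2 for Psmd3, Psmd5 and Psmd10, and control replicate 3 for Psmd3 and Psmd10). Without control replicate 1, Psmb1 and Psmb2 were called higher, and the log2 fold changes of 4 called members moved by over 1.5 times: Psma3 from -0.16 to -0.09, Psmc6 from -0.20 to -0.12, Psme2 from 0.19 to 0.30 and Psmb11 from 1.42 to 2.21.

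**Figure D1:**
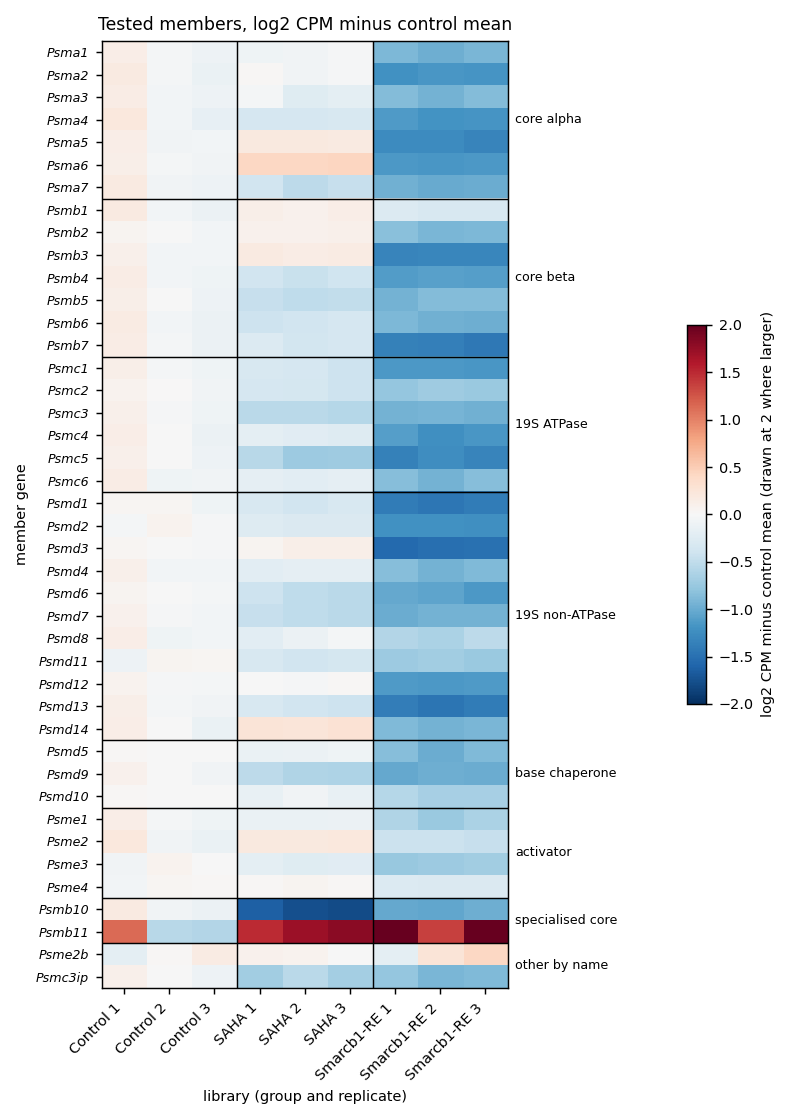
Heatmap of the 42 tested members (rows, by part of the proteasome) in the 9 libraries (columns). Colour is log2 CPM minus the mean log2 CPM of the control libraries, drawn at 2 where larger (Psmb11 only). Smarcb1-RE libraries are blue in nearly all rows, SAHA libraries show pale blue and pale red rows side by side, and control replicate 1 is slightly redder than the other control libraries.

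The 6 ATPases of the cap (Psmc1 to Psmc6), which unfold substrates, were all lower in SAHA libraries, with log2 fold changes between -0.66 and -0.20. The summed ATPase level was 1077, 981 and 940 CPM in control and 782, 759 and 746 CPM in SAHA libraries, so every SAHA library lay under every control library. Psmc5 (ENSMUSG00000020708, chr11:106256154-106263120) showed the largest change of the ATPases, with 169.5, 157.8 and 147.8 CPM in control and 107.6, 95.2 and 97.0 CPM in SAHA libraries. Its log2 fold change was -0.66 (SE 0.059, adjusted p = 7.5e-07, edgeR).

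The other 11 cap subunits split, with 7 lower, 2 higher and 2 not called. The 2 higher were Psmd14 and Psmd3. Psmd14 (ENSMUSG00000026914, chr2:61711694-61800376) encodes the deubiquitinase that strips ubiquitin chains from substrates. Its level was 192.6, 175.9 and 161.2 CPM in control and 211.4, 208.8 and 215.4 CPM in SAHA libraries, without overlap (log2 fold change 0.26, SE 0.054, adjusted p = 0.000897, edgeR). Psmd3, a subunit of the cap's lid, rose by a small amount (log2 fold change 0.10, SE 0.037, adjusted p = 0.0319, edgeR). Among those lowered were Psmd7 (log2 fold change -0.50), the lid partner of Psmd14, and Psmd6 (-0.49), another lid subunit. The scaffold subunits Psmd1 (-0.34) and Psmd2 (-0.28), the ubiquitin receptor Psmd4 (-0.20) and the lid subunits Psmd11 (-0.35) and Psmd13 (-0.38) were also lowered. Psmd8 (-0.12, adjusted p = 0.089, edgeR; called lower without control replicate 2 or SAHA replicate 3) and Psmd12 (0.001, adjusted p = 0.983, edgeR) were not called.

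In the 20S core, 7 of 14 genes were lower, 3 higher and 4 not called, against 34.3% of all tested genes lower and 32.6% higher. The 3 constitutive catalytic subunits were all lower. Psmb5 (chymotrypsin-like site) measured 164.3, 150.5 and 142.4 CPM in control and 110.9, 107.0 and 108.3 CPM in SAHA libraries (log2 fold change -0.49, SE 0.051, adjusted p = 2.86e-06, edgeR). Psmb6 (caspase-like site) measured 145.9, 125.8 and 120.0 CPM in control and 97.2, 99.4 and 102.7 CPM in SAHA libraries (log2 fold change -0.39, SE 0.063, adjusted p = 0.000125, edgeR). Psmb7 (trypsin-like site) measured 184.5, 161.4 and 153.9 CPM in control and 137.2, 129.2 and 132.2 CPM in SAHA libraries (log2 fold change -0.33, SE 0.059, adjusted p = 0.000328, edgeR). None of these 3 genes overlapped between the groups. Of the non-catalytic beta subunits, Psmb4 was lower (-0.41), Psmb3 higher (0.17) and Psmb1 and Psmb2 not called. The alpha subunits moved in both directions. Psma6 (ENSMUSG00000021024, chr12:55384222-55418454) was raised the most of the constitutive subunits. It measured 216.5, 194.4 and 189.2 CPM in control and 264.7, 267.1 and 270.2 CPM in SAHA libraries, which do not overlap (log2 fold change 0.42, SE 0.047, adjusted p = 6.12e-06, edgeR). Psma5 rose by 0.19 on the log2 scale, whereas Psma7, Psma4 and Psma3 had log2 fold changes of -0.46, -0.34 and -0.16, all called lower, and Psma1 and Psma2 were not called. The range of the 31 constitutive subunits, from -0.66 to 0.42, was several times their standard errors (0.037 to 0.073).

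The largest decrease of any member belonged to Psmb10 (ENSMUSG00000031897, chr8:105935735-105938444), the immunoproteasome subunit that takes the place of Psmb7. It fell from 125.7, 105.7 and 101.9 CPM in control to 35.5, 32.8 and 32.1 CPM in SAHA libraries. This was a log2 fold change of -1.73 (SE 0.075, adjusted p = 2.67e-09, edgeR), with the SAHA mean at 0.30 of the control mean. Psmc3ip, which is not a proteasome component, followed Psmc5 in size (log2 fold change -0.64, SE 0.073, adjusted p = 6.26e-06, edgeR), from 24.7, 23.1 and 21.6 CPM in control to 14.3, 15.95 and 14.4 CPM. Psmb11 was the member with the highest log2 fold change (1.42, SE 0.45, adjusted p = 0.0129, edgeR), but on counts of 16, 5 and 5 in control and 20, 23 and 25 in SAHA libraries. It is counted among the members called higher, but it passed the filter on low counts only through its treated libraries. That filter favoured a higher call, so no weight rests on it.

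Of the activators, which open the core gate without ATP, Psme2 was higher and Psme3 lower, and Psme1 and Psme4 were not called. Psme1 and Psme2 encode the subunits of PA28, the activator that partners the immunoproteasome. Psme1 stood at 268.8, 238.4 and 230.5 CPM in control and 223.4, 223.1 and 227.0 CPM in SAHA libraries (log2 fold change -0.13, adjusted p = 0.0553, edgeR), and was called lower without control replicate 2 or 3. Psme2 stood at 364.9, 301.4 and 287.1 CPM in control and 362.5, 360.4 and 365.4 CPM in SAHA libraries (log2 fold change 0.19, adjusted p = 0.0274, edgeR). Psme2 overlapped because of control replicate 1. Psme3, the nuclear PA28 gamma, stood at 326.1, 359.0 and 337.9 CPM in control and 297.8, 288.1 and 290.3 CPM in SAHA libraries (log2 fold change -0.22, SE 0.042, adjusted p = 0.000456, edgeR). Psme4, the PA200 activator, stood at 72.7, 77.5 and 76.9 CPM in control and 76.7, 78.3 and 77.1 CPM in SAHA libraries, which overlap (log2 fold change 0.03, SE 0.039, adjusted p = 0.502, edgeR).

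The chaperones that assemble the ATPase ring were all lower in SAHA libraries. Psmd9 measured 44.6, 41.9 and 40.2 CPM in control and 29.5, 27.8 and 27.5 CPM in SAHA libraries (log2 fold change -0.58, SE 0.052, adjusted p = 8.5e-07, edgeR). Psmd10 measured 31.3, 30.8 and 30.8 CPM in control and 28.0, 29.6 and 27.8 CPM in SAHA libraries (log2 fold change -0.12, SE 0.049, adjusted p = 0.044, edgeR). Psmd5 measured 113.8, 111.4 and 111.4 CPM in control and 102.5, 103.8 and 105.6 CPM in SAHA libraries (log2 fold change -0.11, SE 0.042, adjusted p = 0.0344, edgeR). Groups did not overlap in these genes, and the decrease was largest for Psmd9.

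The second comparison asked how the same genes differed after induced Smarcb1 expression. Nearly the whole set was lower, with median log2 fold changes of -1.05 in the core and -1.07 in the cap. Of the 42 tested members 40 were lower and 1 (Psmb11) higher, and Psme2b was not called. The background was 38.6% of all tested genes lower and 39.2% higher, which applies to the counts by part below as well. The median log2 fold change was -0.95, which corresponds to 0.52 of the control level, against 0.014 for all tested genes. Without control replicate 1 the counts were again 40 lower and 1 higher, with a median of -0.90. None of the 41 calls was lost when any 1 library was left out. When libraries were scaled by their totals alone, the median of all tested genes moved to 0.17 and that of the members to -0.79, and 40 members were lower.

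**Figure D2:**
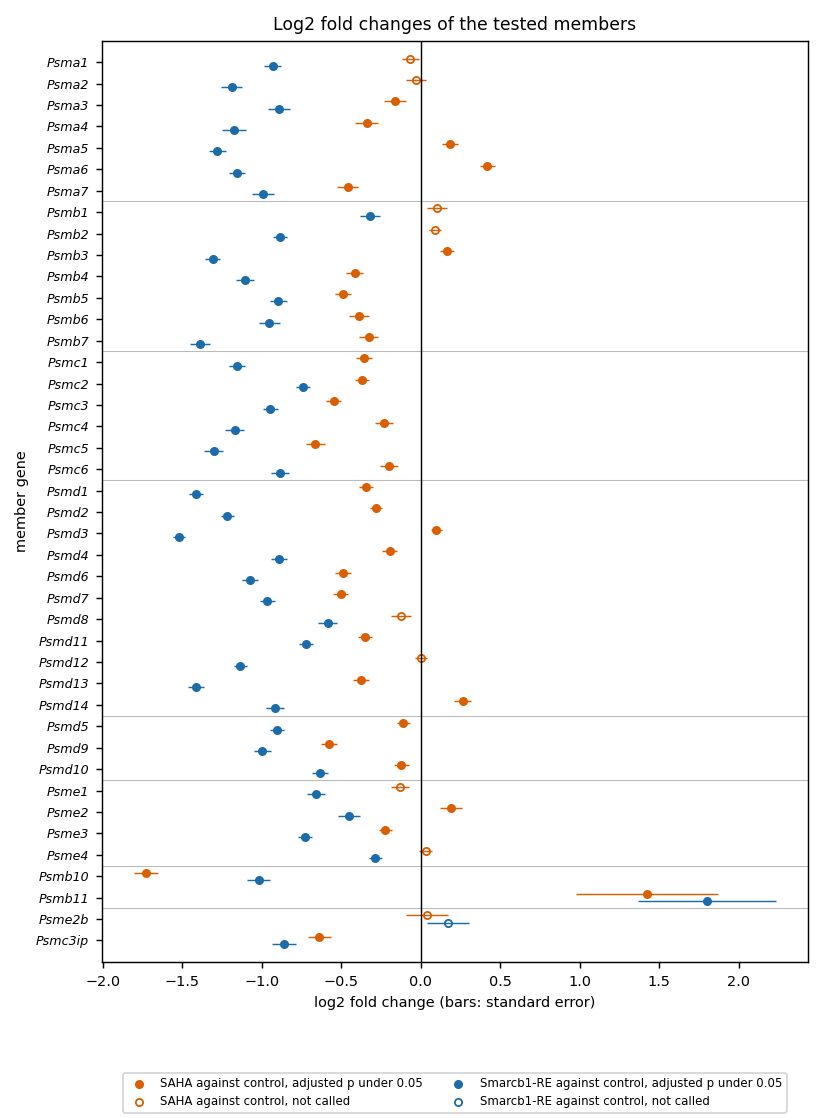
Log2 fold change (horizontal axis) with its standard error for each of the 42 tested members (vertical axis, separated by part of the proteasome), for SAHA (orange) and Smarcb1-RE (blue) against the same control libraries. Filled points passed an adjusted p of 0.05. All blue points except Psmb11 and Psme2b lie left of 0, and orange points lie on both sides.

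All 31 constitutive subunits were lower in Smarcb1-RE libraries, with log2 fold changes from -1.52 to -0.32 and a median of -1.07. The medians of the parts were close to each other: -1.16 for the alpha subunits, -0.95 for the beta subunits, -1.05 for the ATPases and -1.07 for the other cap subunits. Summed levels of the 20S core were 2752, 2408 and 2323 CPM in control and 1252, 1231 and 1237 CPM in Smarcb1-RE libraries. The other cap subunits summed to 2384, 2333 and 2234 CPM in control and 1048, 1036 and 1051 CPM in Smarcb1-RE libraries. The Smarcb1-RE mean was therefore 0.50 of the control mean for the core, 0.49 for the ATPases and 0.45 for the other cap subunits. It was 0.55 for the assembly chaperones and 0.67 for the activators.

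**Figure D3:**
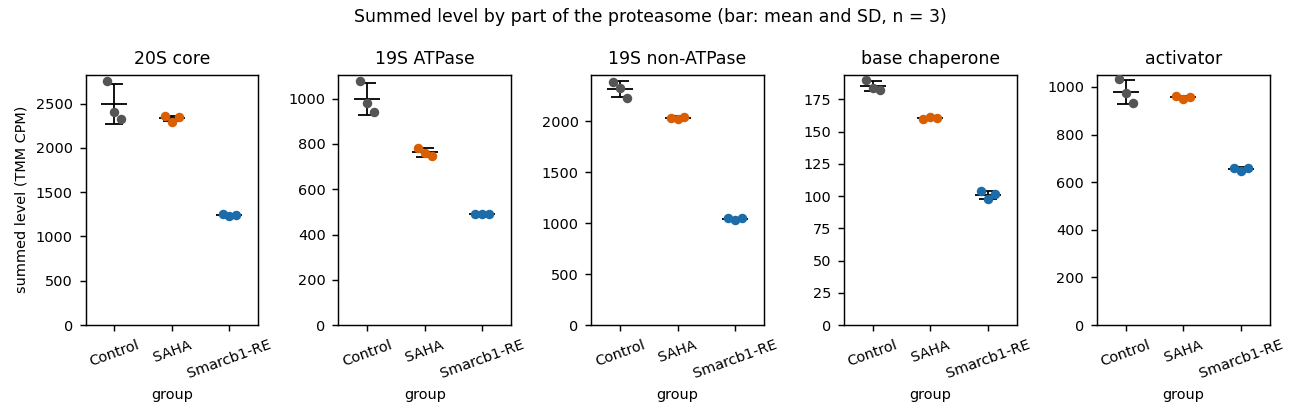
Summed TMM-normalised CPM (vertical axis, from 0, own scale per panel) of the genes of each part of the proteasome in the 3 libraries of each group (points), with mean and SD (bars). In each panel the Smarcb1-RE libraries are the lowest, and SAHA libraries overlap control libraries in the 20S core and activator panels.

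The lowest log2 fold changes belonged to 3 cap genes. Psmd3 (ENSMUSG00000017221, chr11:98682554-98695979) measured 317.2, 309.8 and 303.9 CPM in control and 105.7, 108.7 and 109.8 CPM in Smarcb1-RE libraries (log2 fold change -1.52, SE 0.039, adjusted p = 8.7e-12, edgeR). Psmd1 (ENSMUSG00000026229, chr1:86064387-86139151), the largest scaffold subunit, measured 446.2, 446.3 and 408.9 CPM in control and 163.9, 160.0 and 164.5 CPM (log2 fold change -1.41, SE 0.044, adjusted p = 3.36e-11, edgeR). Psmd13 (ENSMUSG00000025487, chr7:140881968-140898643) measured 179.8, 162.1 and 158.5 CPM in control and 63.9, 60.6 and 63.4 CPM (log2 fold change -1.41, SE 0.053, adjusted p = 1.44e-10, edgeR). In each of the 3 genes the groups were far apart relative to their spread.

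Among the catalytic subunits, Psmb7 had the lowest log2 fold change (-1.39, SE 0.062, adjusted p = 6.42e-10, edgeR), at 65.1, 64.2 and 61.8 CPM in Smarcb1-RE libraries. Psmb6 stood at 69.6, 66.5 and 66.3 CPM (log2 fold change -0.95, SE 0.064, adjusted p = 2.49e-08, edgeR) and Psmb5 at 79.3, 83.1 and 83.3 CPM (log2 fold change -0.90, SE 0.052, adjusted p = 6.04e-09, edgeR). Psmb3 (-1.31) and Psmb4 (-1.11) lay beyond Psmb2 (-0.89). Psmb1 moved the least of the constitutive subunits, with 241.5, 205.5 and 196.4 CPM in control and 176.0, 170.3 and 170.4 CPM in Smarcb1-RE libraries (log2 fold change -0.32, SE 0.063, adjusted p = 0.00053, edgeR). The 7 alpha subunits lay between -1.28 (Psma5) and -0.89 (Psma3), and the 6 ATPases between -1.30 (Psmc5) and -0.74 (Psmc2). Of the other cap genes, Psmd4 and Psmd14 had log2 fold changes of -0.89 and -0.92, Psmd2 and Psmd12 of -1.22 and -1.14, Psmd6 and Psmd7 of -1.07 and -0.97, and Psmd11 and Psmd8 of -0.72 and -0.59.

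Psma3 needs a remark on read assignment. The processed pseudogene Gm13835 (chr6:31141979-31142663) is only 685 bases long and holds 22.5% of the 2816 different 31-base words of Psma3. The deposited table assigned it 14406 counts against 15567 for Psma3. Reads from the shared stretch cannot be told apart, so these entries are not separate measurements. The Gm13835 entry stood at 94.6, 84.9 and 81.7 CPM in control, 74.5, 74.4 and 76.0 CPM in SAHA and 41.5, 45.7 and 43.6 CPM in Smarcb1-RE libraries. Both entries were lowest in Smarcb1-RE. Adding pseudogene counts to their parent genes left the number of members called unchanged in each direction. Psmb5, Psmb3 and Psma5 also share 74.0%, 66.8% and 64.0% of their words with other genes, but the pseudogenes close to them held at most 0.168% of the parent's count. Psme2 shares 66.2% of its words with the member Psme2b, which held 2802 counts against 63806 for Psme2. How reads were divided between them is uncertain.

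The activators were lowered less. Psme4 had the highest log2 fold change of the called members that fell (72.7, 77.5 and 76.9 CPM in control, 62.7, 61.8 and 61.9 CPM in Smarcb1-RE; log2 fold change -0.28, SE 0.040, adjusted p = 2.59e-05, edgeR). Psme2 stood at 234.2, 233.7 and 230.0 CPM (log2 fold change -0.45, SE 0.070, adjusted p = 6.52e-05, edgeR), Psme1 at 162.0, 146.9 and 158.6 CPM (-0.66, SE 0.057, adjusted p = 2.73e-07, edgeR) and Psme3 at 201.3, 206.8 and 210.3 CPM (-0.73, SE 0.043, adjusted p = 7.31e-09, edgeR). All 3 lay under their control libraries without overlap. The chaperones Psmd9 (20.7, 21.4 and 21.3 CPM), Psmd5 (62.3, 56.5 and 61.0 CPM) and Psmd10 (20.9, 19.6 and 19.5 CPM) had log2 fold changes of -0.996, -0.91 and -0.63, with adjusted p of 3.41e-09, 1.19e-09 and 1.43e-07 (edgeR). The meiotic factor Psmc3ip lay at -0.86. Psmb10 fell to 54.4, 53.7 and 56.2 CPM (log2 fold change -1.02, SE 0.071, adjusted p = 3.49e-08, edgeR).

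The 2 members that did not fall were both poorly resolved. Psmb11 had counts of 31, 18 and 40 in Smarcb1-RE libraries, against 16, 5 and 5 in control (log2 fold change 1.80, SE 0.43, adjusted p = 0.00203, edgeR). Because it passed the filter on low counts only through its treated libraries, a higher call was favoured here too. The gene begins 3.41 kb from Psmb5, which was lowered. Psme2b measured 11.1, 12.8 and 14.2 CPM in control and 11.1, 15.1 and 16.9 CPM in Smarcb1-RE libraries, which overlap (log2 fold change 0.17, SE 0.13, adjusted p = 0.253, edgeR). It shares 76.5% of its 31-base words with Psme2, and its level is uncertain for this reason. It was called higher when libraries were scaled by totals alone or without Smarcb1-RE replicate 1.

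Other measures moved with the Smarcb1-RE group. The mitochondrial share of counts was 3.02% to 3.53% in control, 3.37% to 3.76% in SAHA and 4.79% to 5.08% in Smarcb1-RE libraries. The summed level of 5 fibroblast markers was 6.29 to 8.84 CPM in control and 66.4 to 68.6 CPM in Smarcb1-RE libraries, which came from Pdgfra, while Col1a2, Dcn and Lum stood at or under 3 counts there. The list of 4 B-cell markers summed to 0.936 to 1.14 CPM in control and 7.25 to 7.97 CPM in Smarcb1-RE, with Cd79a and Cd79b at or under 3 counts in the latter. Myeloid and erythroid lists (5 markers each) stayed under 1.4 CPM in sum. The part of these measures in the lower proteasome levels was not tested.

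The third comparison set Smarcb1-RE directly against SAHA. Both groups had been compared with the same control libraries, so this contrast is the test of whether a gene's change differed between them. Of the 42 tested members, 39 were lower in Smarcb1-RE than in SAHA libraries, 1 (Psmb10) was higher and 2 (Psmb11 and Psme2b) were not called. The background was 36.8% of all tested genes lower and 37.7% higher. The median log2 fold change was -0.66, against 0.017 for all tested genes. When libraries were scaled by totals alone, the median of the members was -0.51 and that of all tested genes 0.176. The one call of the 40 that was lost when a library was left out was Psmc3ip (without SAHA replicate 2, Smarcb1-RE replicate 2 or Smarcb1-RE replicate 3), whose log2 fold change was -0.22.

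Psma5, Psma6, Psmb3, Psmd3, Psmd14 and Psme2 were called higher in SAHA and lower in Smarcb1-RE against the shared control libraries. Their log2 fold changes against control were 0.19 in SAHA and -1.28 in Smarcb1-RE for Psma5, 0.26 and -0.92 for Psmd14, and 0.19 and -0.45 for Psme2. The SAHA calls of Psmd3 and Psme2 were among those lost when a library was left out. How many of all tested genes had such opposite calls was not counted. The 3 lowest log2 fold changes between the treated groups belonged to Psmd3, Psma6 and Psmb3. Psmd3 stood at 323.3, 335.4 and 338.2 CPM in SAHA libraries and 105.7 to 109.8 CPM in Smarcb1-RE (log2 fold change -1.62, SE 0.039, adjusted p = 4.04e-12, edgeR). Psma6 stood at 89.7, 89.2 and 90.3 CPM in Smarcb1-RE libraries, against 264.7 to 270.2 CPM in SAHA (log2 fold change -1.57, SE 0.050, adjusted p = 3.83e-11, edgeR). Psmb3 stood at 214.2, 210.3 and 211.5 CPM in SAHA and 76.0, 76.7 and 76.3 CPM in Smarcb1-RE libraries (log2 fold change -1.47, SE 0.046, adjusted p = 3.68e-11, edgeR).

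Psmb10 had the opposite order. Its 3 Smarcb1-RE libraries (53.7 to 56.2 CPM) lay above its 3 SAHA libraries (32.1 to 35.5 CPM), and both groups lay under control (log2 fold change 0.71, SE 0.077, adjusted p = 2.64e-06, edgeR). Psmb11 (log2 fold change 0.38, SE 0.38, adjusted p = 0.381, edgeR) and Psme2b (0.13, SE 0.13, adjusted p = 0.384, edgeR) overlapped between the treated groups.

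The balance of immunoproteasome to constitutive catalytic subunits was then compared per length. Psmb8 and Psmb9 were abundant in control cells, at 307 ± 34.2 and 329 ± 25.6 RPKM (SD, n = 3), against 170 ± 12.3 RPKM for Psmb5 and 164 ± 16.98 RPKM for Psmb6. Psmb10 lay lower, at 84.7 ± 9.77 RPKM, against 144 ± 13.8 RPKM for Psmb7. Psmb8 measured 562.5, 483.6 and 455.1 CPM in control, 410.8, 408.6 and 396.8 CPM in SAHA and 445.5, 456.6 and 453.0 CPM in Smarcb1-RE libraries. It was lower in SAHA (log2 fold change -0.30, adjusted p = 0.00091, edgeR). In Smarcb1-RE its log2 fold change was -0.15 (adjusted p = 0.047, edgeR), a call that was lost without control replicate 1 (-0.06, adjusted p = 0.108, edgeR) and turned to 0.013 when libraries were scaled by totals alone. Psmb9 was not called in either comparison (-0.10 in SAHA, adjusted p = 0.108, edgeR; 0.010 in Smarcb1-RE, adjusted p = 0.861, edgeR), though it was called higher in Smarcb1-RE by totals alone and without control replicate 1 (0.07, adjusted p = 0.0373, edgeR).

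Within a library these ratios do not depend on the scaling. The log2 ratio of Psmb8 to Psmb5 was 0.92, 0.83 and 0.82 in control, 1.03, 1.08 and 1.02 with SAHA and 1.63, 1.60 and 1.59 in Smarcb1-RE libraries. That of Psmb9 to Psmb6 was 0.97, 1.01 and 1.05 in control, 1.34, 1.31 and 1.24 with SAHA and 1.91, 1.99 and 2.002 in Smarcb1-RE libraries. Both ratios were highest in Smarcb1-RE libraries, without overlap. That of Psmb10 to Psmb7 was -0.73, -0.79 and -0.77 in control, -2.13, -2.16 and -2.22 with SAHA and -0.44, -0.44 and -0.31 in Smarcb1-RE libraries, so of these 3 pairs SAHA libraries were lowest in this one alone. The log2 ratio of Psme1 to Psme2 was -0.57 ± 0.066 in control, -0.90 ± 0.0056 in SAHA and -0.79 ± 0.079 in Smarcb1-RE (SD, n = 3). Each of the 12 comparisons (4 ratios between 3 pairs of groups) gave p = 0.1 in a two-sided exact permutation test, raw and Benjamini-Hochberg adjusted, the smallest p that 3 libraries against 3 allow.

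**Figure D4:**
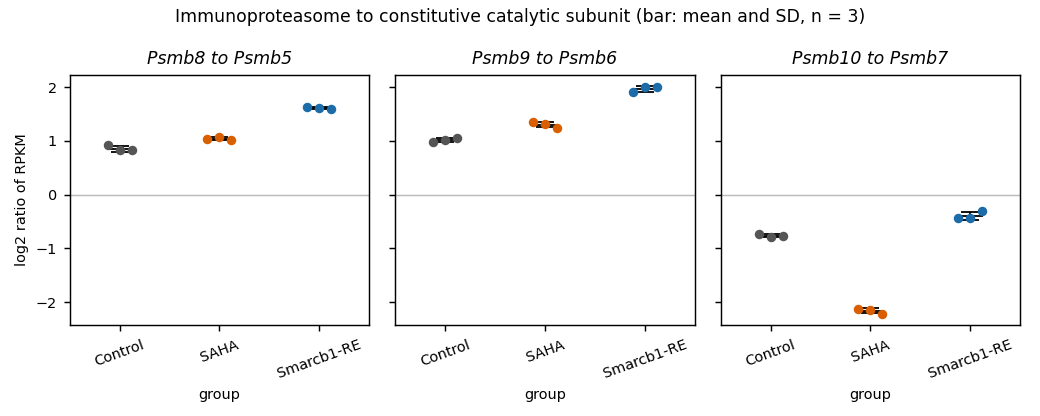
Log2 ratio of RPKM (vertical axis) of each immunoproteasome subunit to the constitutive subunit it replaces, in the 3 libraries of each group (points), with mean and SD (bars). The first 2 panels step up from control to SAHA to Smarcb1-RE, and in the third the SAHA libraries lie near -2.2 and the Smarcb1-RE libraries near -0.4.

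Other genes of the pathway that the symbol rule leaves out were counted by list. Of all 25, 18 were lower and 1 higher in SAHA, and 19 were lower and 2 higher in Smarcb1-RE. The shares of all tested genes, against which the lists are to be read, were 34.3% lower and 32.6% higher in SAHA and 38.6% lower and 39.2% higher in Smarcb1-RE. The remaining cap subunits are Adrm1, a ubiquitin receptor, and Sem1. Adrm1 was lower in both groups (log2 fold changes -0.32 and -1.15 in SAHA and Smarcb1-RE), and Sem1 was called lower in Smarcb1-RE (-0.70) and not called in SAHA, where it was called higher without control replicate 1. All 6 genes of core assembly and inhibition were lower in both groups, but in SAHA the calls of Pomp and Psmg2 were lost without control replicate 1, where their log2 fold changes went from -0.17 to -0.09 and from -0.15 to -0.06. Pomp, the maturation factor of the core, measured 144.0, 129.4 and 117.7 CPM in control, 122.3, 112.3 and 114.2 CPM in SAHA and 44.97, 45.9 and 44.1 CPM in Smarcb1-RE libraries. Its log2 fold change in Smarcb1-RE was -1.53 (SE 0.067, adjusted p = 5.64e-10, edgeR). Psmg1, a chaperone of alpha-ring assembly, was lowered in SAHA (-1.12) and in Smarcb1-RE (-0.97).

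Of 5 genes of proteins bound to the proteasome, 3 were lower and 1 higher in SAHA, and 4 were lower in Smarcb1-RE, against 34.3% and 38.6% of all tested genes called lower. Usp14, a deubiquitinase that docks on the cap, was the one raised in SAHA (log2 fold change 0.28) and was lowered in Smarcb1-RE (-0.83). The test between the treated groups gave -1.11 (SE 0.040, adjusted p = 1.19e-10, edgeR). Of 5 shuttle factors, which carry ubiquitinated proteins to the cap, 3 were lower in SAHA and 4 in Smarcb1-RE, beside the same shares of all genes, with Ubqln1 at -0.11 and -0.72.

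The NRF1 route went both ways. Nfe2l1, which encodes NRF1, measured 163.2, 175.3 and 174.9 CPM in control, 131.5, 137.4 and 136.8 CPM in SAHA and 324.2, 334.0 and 343.3 CPM in Smarcb1-RE libraries. The 3 groups did not overlap. Its log2 fold change was -0.34 in SAHA (SE 0.043, adjusted p = 1.51e-05, edgeR) and 0.96 in Smarcb1-RE (SE 0.042, adjusted p = 5.31e-10, edgeR), and the test between the treated groups gave 1.30 (SE 0.043, adjusted p = 5.18e-11, edgeR). So the mRNA of this activator was highest in the libraries in which the subunit mRNAs were lowest. NRF1 is activated after translation, and its protein was not measured. Ngly1, the glycanase that processes NRF1, was lower in SAHA (-0.84) and slightly higher in Smarcb1-RE (0.19), a call that was lost without control replicate 3 or Smarcb1-RE replicate 1. Vcp, the ATPase that extracts NRF1 from the endoplasmic reticulum, was lower in both (-0.48 and -0.68). Ddi2, the protease that cleaves NRF1, was lower in SAHA (-0.29) and not called in Smarcb1-RE. Nfe2l2, which encodes the related factor NRF2, was lower in Smarcb1-RE (-0.41) and not called in SAHA.

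**Figure D5:**
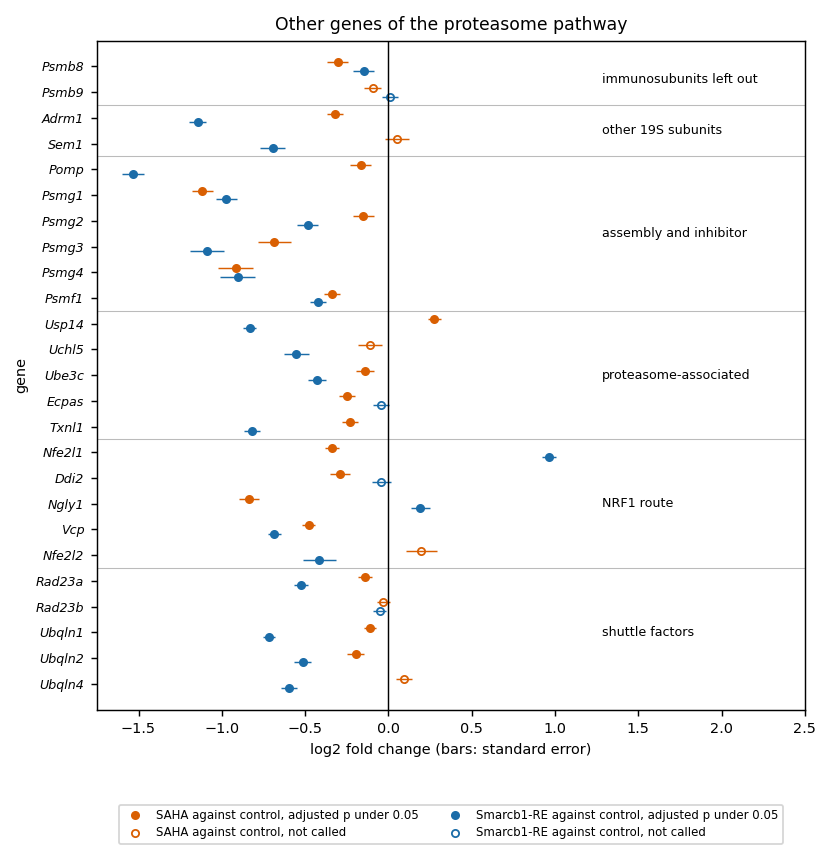
Log2 fold change (horizontal axis) with its standard error for 25 other genes of the pathway (vertical axis, by list), for SAHA (orange) and Smarcb1-RE (blue) against the same control libraries. Filled points passed an adjusted p of 0.05. Nfe2l1 is the blue point farthest to the right, at 0.96, and Pomp the one farthest to the left.

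The members whose promoters hold the antioxidant response element core, printed above, were described by their medians. In Smarcb1-RE the 6 with a match had a median log2 fold change of -0.92 (from -1.14 to -0.28), and the 30 tested members with a window and no match one of -0.96. In SAHA the medians were -0.29 and -0.21. For the ETS core the medians in Smarcb1-RE were -1.07 for the 21 members with a match and -0.93 for the 15 without. Their ranges overlapped widely (-1.41 to 1.80 with a match and -1.30 to 0.17 without). In SAHA the ETS medians were -0.23 and -0.13. CCAAT had the opposite order, with medians of -0.905 with a match and -1.008 without in Smarcb1-RE, and -0.14 and -0.31 in SAHA.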

How the data were processed

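RNA-seq of T15 cells was analysed in 9 libraries (3 control, 3 SAHA, 3 Smarcb1-RE). The authors deposited estimated counts per Ensembl gene, not normalized. The submitters' processing notes name Salmon 0.14.1, DESeq2 1.22.2, FastQC 0.11.8, MultiQC 1.7 and the build GRCm38, without the annotation release. Libraries were directional and single-end. Counts were rounded to whole numbers. Of 35288 identifiers, 99.5% matched GENCODE M21, which gave names, coordinates and principal transcript lengths. How reads that match several genes were shared out is set by the authors' quantification, so values of genes with near copies are uncertain. A floor of 3 counts was 0.12 to 0.144 CPM of the library total, which reflects counting error alone.

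Groups were compared by edgeR's quasi-likelihood test (edgeR 4.0.16, R 4.3.3), fitted once to all 9 libraries. Library sizes were scaled by TMM, genes were kept by filterByExpr (count minimum 10), and p-values were adjusted by Benjamini-Hochberg over 13697 genes, with calls at an adjusted p under 0.05. The common biological coefficient of variation was 5.24%. Each standard error is the size of the log2 fold change over the root of its F statistic. CPM values are TMM-normalized. The methods describe the replicates as biological.

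The members and lists were chosen with earlier results of these data known. Full values are given for the 3 members with the largest and the 3 with the smallest log2 fold change per comparison, and library values and log2 fold changes for the catalytic, activator and chaperone members. All other members are given by value or by group. Some genes of the other lists are not reported here. Alternatives were DESeq2 1.42.0, RLE factors, library totals only, other filters and thresholds, separate fits, a replicate block, leaving out each library, a shorter member list and, added after the data had been seen, pseudogene counts added to their parent. Replicate numbers did not pair the libraries (correlations of deviations -0.11 to 0.14 for the same number, -0.17 to 0.15 for different numbers). No replicates agreed within sampling noise. The calculations were tested on simulated data. Of genes changed by 0.5 on the log2 scale, 79.6% (SAHA) and 78.9% (Smarcb1-RE) were recovered, and 6.6% and 4.6% of calls were false. The simulation changed far fewer genes than were called here and gave all genes the same spread. It therefore cannot show the error rate in these data.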

Additional observations from a re-analysis of the deposited data

How the results depend on the processing

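The directions of the 3 medians held under each alternative, and 38 to 40 members were lower in Smarcb1-RE than in control or SAHA except when changes under 0.5 on the log2 scale were not counted (37 and 29). In SAHA against control, 7 members higher became 4 at an adjusted p under 0.01 and 1 at the fold minimum of 0.5. The 1 left was Psmb11, on which no weight rests. That fold minimum left 6 of 26 lower. Leaving out each library gave 4 to 9 higher (4 without control replicate 2 or 3, 9 without control replicate 1). In Smarcb1-RE against control, 1 member higher became 2 with library totals, 0 with at least 10 counts in every library and 0 without Psmc3ip, Psma8, Psmb11 and Psme2b (edgeR in both cases, with 0 also at an unadjusted p under 0.05 and, for the shorter list, by DESeq2), and 1 to 2 when each library was left out. Both settings that gave 0 remove Psmb11, the only member called higher in the main fit, so they cannot test its call. The median of -0.949 became -0.789 with library totals, where that of all tested genes moved from 0.014 to 0.173. In Smarcb1-RE against SAHA, leaving out each library gave 1 to 2 higher (2 without Smarcb1-RE replicate 1) and medians of -0.696 to -0.662. Its median of -0.663 became -0.681 with DESeq2, -0.505 with library totals and -0.690 with the shorter list. With library totals the median of all tested genes moved from 0.017 to 0.176 in this comparison. Beyond the removal of Psmb11, the cause of these changes was not tested.

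Values near 0 changed sign. In SAHA against control, Psma2 (-0.028) became 0.006 with at least 10 counts in every library and -0.095 to 0.062 when each library was left out, and Psmd12 (0.001) became -0.001 with DESeq2, -0.017 without a filter and -0.018 to 0.033 when each library was left out. Under leave-one-out, Psma1 ranged from -0.113 to 0.005 and Psme2b from -0.051 to 0.128 in that comparison, and Psme2b from -0.00018 to 0.28 in Smarcb1-RE against SAHA. In Smarcb1-RE against control, Psmb8 (-0.147) became 0.013 with library totals, and Psmb9 (0.010) became -0.009 with DESeq2, -0.017 without a filter and -0.042 to 0.069 when each library was left out. With the replicate block, 6 members were higher and 26 lower in SAHA (median -0.209), and 40 were lower in Smarcb1-RE (median -0.947).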
